A study of Mus musculus with 27 samples.

Results

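The RNA of the nucleoplasm (NP) of control mouse embryonic stem cells was compared with the RNA of the cytoplasm (CY) of the same cells. The comparison took 6 of the 27 libraries of the series, NP replicates 1 to 3 and CY replicates 1 to 3 of cells given a control siRNA, set against each other by replicate number. It covered the 13860 of 53379 listed genes that reached 1 TPM in at least 3 of those 6 libraries. TPM is a transcript's share of a fixed library total, corrected for transcript length.

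The cells were E14, a mouse embryonic stem cell line. All groups were grown on gelatin in medium with LIF, a cytokine that holds such cells undifferentiated. All received 20 uM of siRNA and, 24 h later, a second dose, and were taken at 48 h. Control cells received siRNA against eGFP (siGFP). The other groups received siRNA against PTBP1 (siPTBP1) or against PTBP1 and PTBP2 together (siPTBP1+siPTBP2). NP, CY and chromatin (CH) were separated from each treatment, giving 9 groups of 3 libraries that the series describes as biological replicates of 1 cell line. PolyA+ RNA was sequenced, so RNA without a poly(A) tail is seen only in part. The labels do not say how the fractions were separated.

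As background, an mRNA is made in the nucleus, and most finished mRNAs are exported to the cytoplasm, while some long noncoding RNAs and incompletely spliced RNAs stay behind. In the cytoplasm, mRNAs for secreted and membrane proteins are translated on the surface of the endoplasmic reticulum (ER), a membrane that is continuous with the outer membrane of the nuclear envelope. The ribosome is brought there when a hydrophobic stretch near the start of the new protein, the signal peptide, is bound by the signal recognition particle. Tail-anchored proteins carry their only membrane stretch at the very end, so that it leaves the ribosome after translation is over and the protein is inserted later. Mitochondria hold their own genome and transcribe and translate it inside the organelle.

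The following coding sequences are examples with and without a hydrophobic stretch, the feature used to class proteins below. They are from GENCODE M21 transcripts (GRCm38, the assembly also called mm10) and are written 5′ to 3′. For the start of the coding sequence, bases 1 to 99 are given, and for the end, the last 102 bases before the stop codon. Capitals mark the 57 bases that encode the most hydrophobic window of 19 residues, where that window reached a mean Kyte-Doolittle hydropathy of 1.6.
Hspa5, start, an ER chaperone (chr2): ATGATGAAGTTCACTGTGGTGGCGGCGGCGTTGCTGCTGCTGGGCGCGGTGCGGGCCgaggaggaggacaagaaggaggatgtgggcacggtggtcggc
Hsp90b1, start, an ER chaperone (chr10): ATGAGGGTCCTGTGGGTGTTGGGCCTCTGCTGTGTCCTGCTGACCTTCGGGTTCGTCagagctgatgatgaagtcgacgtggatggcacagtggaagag
Fn1, start, secreted fibronectin (chr1): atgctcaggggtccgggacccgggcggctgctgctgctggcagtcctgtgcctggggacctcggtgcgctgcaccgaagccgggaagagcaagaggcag
Gapdh, start, a cytosolic enzyme (chr6): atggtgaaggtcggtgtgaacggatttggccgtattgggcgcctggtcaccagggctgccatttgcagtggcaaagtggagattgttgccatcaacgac
Sec61b, end, tail-anchored in the ER (chr4): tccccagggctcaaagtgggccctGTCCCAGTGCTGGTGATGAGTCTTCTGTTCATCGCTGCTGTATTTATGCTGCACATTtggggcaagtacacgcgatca
Vamp2, end, tail-anchored in vesicles (chr11): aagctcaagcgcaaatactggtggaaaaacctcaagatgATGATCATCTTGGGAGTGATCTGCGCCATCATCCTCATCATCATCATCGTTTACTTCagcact
Fis1, end, tail-anchored in mitochondria (chr5): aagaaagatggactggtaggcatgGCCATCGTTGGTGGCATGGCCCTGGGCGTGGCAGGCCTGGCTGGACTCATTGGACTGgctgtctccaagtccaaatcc
Hspa5 and Hsp90b1 begin with such a window and the 3 tail-anchored proteins end with one. Fn1 has a signal peptide that stays under the threshold, its best window reaching 1.52, and Gapdh has none, with a best window of 1.05. A class built on this threshold therefore misses some secreted proteins.

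RNAs known for one compartment were used to describe what each fraction held. The summed level of 5 cytosolic mRNAs (Gapdh, Actb, Eef1a1, Rplp0 and Rps6) was 15075 to 17183 TPM in NP, against 18793 to 25727 TPM in CY. The 5 nuclear RNAs (Malat1, Neat1, Xist, Kcnq1ot1 and Meg3) summed to 181 to 349 TPM in NP and 42.8 to 67.4 TPM in CY, whereas CH held 1506 to 2762 TPM. Xist was hardly seen in any fraction, at 0.01 TPM in each NP library, 0 in CY and 0.13 to 0.49 TPM in CH. The 5 mitochondrial RNAs (mt-Nd1, mt-Co1, mt-Cytb, mt-Atp6 and mt-Rnr2) summed to 45793 to 75062 TPM in NP, 2762 to 7962 TPM in CH and 279 to 604 TPM in CY. The 5 mRNAs translated at the ER (Hspa5, Hsp90b1, Calr, Sec61a1 and Lamb1) summed to 2387 to 2931 TPM in NP, 1580 to 2022 TPM in CH and 266 to 385 TPM in CY. Relative to CY, the NP libraries were rich in mitochondrial RNA and ER-translated mRNA as well as in nuclear RNA. Because only shares were measured, whether a fraction contained more of these organelles or more RNA per organelle cannot be told apart, and the part of organelles in the gene results below was not tested. All 10 embryonic stem cell markers were at 1 TPM or more in every library of both fractions. Of 8 fibroblast markers, 5 in NP and 1 in CY were, and their sum was 32.6 to 54.2 TPM in NP against 10.5 to 15.8 TPM in CY. Lum was listed at 0 in CY and in CH. Of 7 primitive endoderm markers 1 was in each fraction, with sums of 7.92 to 14.6 TPM in NP and 3.78 to 6.99 TPM in CY. Of 6 neuron markers 3 were in each fraction, with sums of 174 to 254 TPM in NP and 238 to 300 TPM in CY. Both fractions came from the same cells, so these gaps do not compare cell types.

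Of the 13860 genes, 4316 (31.1%) were called higher in NP and 1276 (9.21%) lower in NP (limma on log2(TPM + 1) with replicate number as a block, two-sided, Benjamini-Hochberg adjusted p under 0.05). In 3645 genes (26.3%) all 3 NP values lay above all 3 CY values, and in 1362 (9.83%) all lay below. Differences are given as log2 NP minus CY on the log2(TPM + 1) scale, on which low genes appear to differ less than they do, and their median over all genes tested was 0.16. Without the block, 2446 genes (17.6%) were higher and 249 (1.8%) lower, of which 2393 and 249 were also called with it. The direction of small differences rested on the scaling. With TPM rescaled to leave out genes whose symbols start with mt-, 5621 of 14030 genes (40.1%) were higher and 629 (4.48%) lower, and the median moved to 0.33. That rescaling kept noncoding RNA under 200 nt, which took a larger share of CY. Its share was 6.13% ± 3.13 of the summed TPM in NP and 15.2% ± 6.63 in CY (SD, n = 3). A scaling without that class was not run. With median-ratio scaling 3268 genes (23.6%) were higher and 4581 (33.1%) lower, with a median of -0.13, and with quantile normalization 2656 (19.2%) were higher and 4733 (34.1%) lower, with a median of -0.22. Calls in the higher direction made up 77.2% of all calls as deposited, 89.9% without mt- genes, 41.6% with median-ratio scaling and 35.9% with quantile normalization. Small differences are therefore read against the median of all genes. The count of genes called lower also moved with the replicates: it was 2237 without replicate 1, 702 without replicate 2 and 259 without replicate 3.

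**Figure D1:**
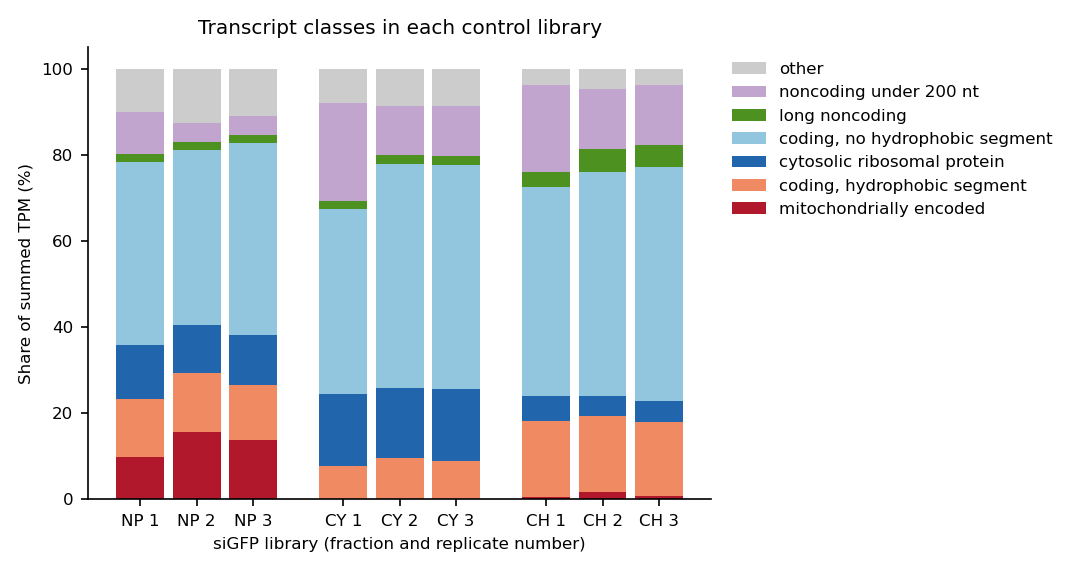
Share of summed TPM (percent, y axis) taken by each transcript class in the 3 NP, 3 CY and 3 CH libraries of siGFP cells. The mitochondrially encoded class is 9.68 to 15.6% of NP and at most 0.111% of CY, and the class of coding genes with a hydrophobic segment is larger in every NP library than in any CY library.

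Mitochondrially encoded RNA took 9.68, 15.6 and 13.7% of the summed TPM in the NP libraries, against 0.0511, 0.0582 and 0.111% in the CY libraries. This is the widest gap between the fractions in the plot of transcript classes, and its groups do not overlap. The exact permutation test over libraries gave p = 0.25 with sign flips within the pairs and p = 0.1 with relabelling, both two-sided and both the smallest p that 3 against 3 libraries allow. In CH the class held 0.972% ± 0.618 (SD, n = 3).

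All 13 mitochondrially encoded mRNAs, which code for core subunits of the respiratory chain and of ATP synthase, were higher in NP. Their differences ran from 6.99 for mt-Co2 to 8.11 for mt-Atp8, and all 13 stayed higher without the block, with median-ratio scaling and with quantile normalization. The mRNA of mt-Co1, the catalytic subunit of cytochrome c oxidase (chrM:5328-6872, plus strand), had 19854.5, 39343 and 28527 TPM in NP, against 120, 163 and 244 TPM in CY. Every NP library was far above every CY library, with a difference of 7.38 ± 0.19 (SE; limma adjusted p = 2.19e-08). The mRNA of mt-Atp8, a small subunit of ATP synthase, had 24020, 34392 and 33027 TPM in NP, against 75.6, 87.9 and 189 TPM in CY. The mRNA of mt-Nd6, the only one of these transcribed from the other strand, had 240, 590 and 601 TPM in NP, against 1.15, 1.83 and 2.22 TPM in CY. The mRNA of mt-Nd3 averaged 282 TPM in NP and was listed at 0 in all 3 CY libraries, so no fold is given for it and it was tested only because of its level in NP. The mitochondrial ribosomal RNAs, mt-Rnr1 and mt-Rnr2, were higher by 5.09 and 4.90, less than any of the mRNAs. For mt-Rnr2 the levels were 192, 225 and 347 TPM in NP, against 6.20, 5.29 and 11.5 TPM in CY. Poly(A) selection bears on how much of these ribosomal RNAs is seen.

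RNA that matches the mitochondrial genome was also listed under nuclear genes. On chromosome 1 (mm10) the 5 unprocessed pseudogenes Gm28438, Gm28437, Gm10925, Gm28661 and Gm29216 lie side by side between chr1:24612775 and chr1:24616197, and 97.2 to 100% of their stretches of 31 bases also occur in mitochondrial transcripts. All 5 were called higher in NP, with differences of 5.45 to 8.31. Gm10925 had 13607, 17413 and 12937 TPM in NP, against 28.4, 78.8 and 39.8 TPM in CY. Such copies took 3.8, 6.71 and 4.53% of the summed TPM in NP and 0.0264, 0.0311 and 0.0443% in CY. Reads of the mitochondrial genome and of these copies cannot be told apart with certainty in gene values, and a scaling that leaves out only symbols starting with mt- keeps the copies in the total. With the copies left out as well, an alternative chosen after seeing the data, 6341 of 14128 genes (44.9%) were higher, 422 (2.99%) were lower, and the median difference was 0.40.

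**Figure D2:**
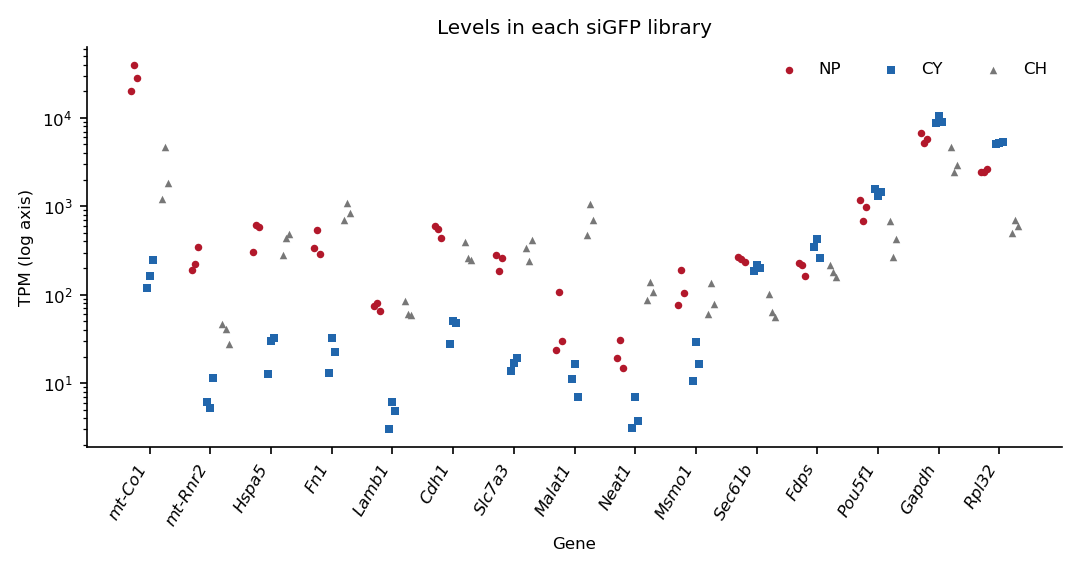
TPM (log axis) of 15 genes in each siGFP library, with 3 NP, 3 CY and 3 CH libraries per gene side by side. The genes from mt-Co1 to Slc7a3, Malat1, Neat1, Msmo1 and Sec61b lie higher in every NP library than in any CY library. Fdps, Pou5f1, Gapdh and Rpl32 lie lower.

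With mitochondrial RNA, pseudogenes, transcripts under 200 nt and predicted gene names set aside, 15 genes were named for the largest higher differences (a mean of at least 10 TPM in NP and no overlap between the fractions). All 15 code for secreted, ER, Golgi or plasma membrane proteins, and their differences ran from 3.67 to 4.29. Hspa5, the main ER chaperone of the Hsp70 family (chr2:34771970-34777547, plus strand), had 304, 607 and 577 TPM in NP, against 12.7, 30.1 and 32.6 TPM in CY. All 3 NP values lay far above all 3 CY values, with a difference of 4.29 ± 0.16 (SE; limma adjusted p = 5.48e-21). Fn1, secreted fibronectin (chr1:71585520-71653200, minus strand), had 342, 535 and 288 TPM in NP, against 13.1, 32.5 and 22.3 TPM in CY, a difference of 4.08 ± 0.18 (SE; limma adjusted p = 2.83e-17). Hsp90b1, the ER member of the Hsp90 family, had 201, 633 and 460 TPM in NP, against 12.1, 24.0 and 37.7 TPM in CY. For all 3 genes the fractions were far apart although the replicates of each fraction also differed among themselves. The others were Glg1, a Golgi membrane glycoprotein (4.02), the laminin chains Lamc1 (3.96) and Lamb1 (3.74), the basement membrane proteoglycan Hspg2 (3.88), Uggt1, which checks the folding of glycoproteins (3.79), the arginine and lysine transporter Slc7a3 (3.76), the giant cadherin Fat1 (3.73), Aplp2, a relative of the amyloid precursor protein (3.72), the basement membrane protein Nid2 (3.71), the glypican Gpc3 (3.70), the ectoenzyme Enpp3 (3.70) and the gap junction protein Gja1 (3.67). All 15 stayed called without the block. In CH these mRNAs were not low either: Hspa5 averaged 406 TPM ± 108 and Fn1 879 TPM ± 203 (SD, n = 3).

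The mRNAs listed for the ER import machinery were higher as a group. Of the 16 genes for ER translocation and signal peptide processing, which bring new proteins to and through the ER membrane, all 16 were higher, with a median of 1.55 against 0.16 for all genes, and 11 stayed higher without the block. Sec61a1, the pore of the translocation channel, had 366, 287 and 294 TPM in NP, against 76.1, 81.7 and 80.5 TPM in CY, a difference of 1.97 (limma adjusted p = 1.81e-12). Its paralog Sec61a2 was higher by 2.52. Sec61b and Sec61g, the small subunits of the same channel, are not in this list. They were placed with the tail-anchored proteins below, where neither was called. The smallest difference of the list was that of Spcs1, a small subunit of signal peptidase, which had 79.2, 74.95 and 92.9 TPM in NP, against 52.3, 71.8 and 57.5 TPM in CY. Its fractions were close although not overlapping, with a difference of 0.44 (limma adjusted p = 0.0371) that was not called without the block (adjusted p = 0.167).

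Of the 11 genes of the oligosaccharyltransferase, the ER complex that attaches sugar chains to new proteins, 10 were higher. That is 90.91%, against 31.1% of all genes. The median was 1.96, and 8 stayed higher without the block. Rpn1, a large structural subunit, had 545, 478 and 462 TPM in NP, against 69.2, 89.2 and 80.9 TPM in CY. All NP values were several times the CY values, with a difference of 2.62. The smallest subunits stood at the other end. Ost4, which codes for 37 residues, had 179, 119 and 136 TPM in NP, against 146, 143 and 136 TPM in CY. Its fractions overlapped, and its difference of 0.01 was not called (limma adjusted p = 0.959), while with median-ratio scaling it was -0.34 and called lower. Tmem258, which codes for 79 residues, was higher by 0.46.

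All 29 genes for ER chaperones and folding enzymes were higher, with a median of 2.51, and 28 stayed higher without the block. Calr, the calcium-binding chaperone calreticulin, had 1441, 1324 and 1230 TPM in NP, against 162, 220 and 229 TPM in CY, a difference of 2.71. Erp29, a small ER protein of the disulfide isomerase family, had the smallest difference. It had 194, 170 and 162 TPM in NP, against 129, 150 and 106 TPM in CY, a difference of 0.45 (limma adjusted p = 0.0219; 0.138 without the block).

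Genes for secreted and cell surface proteins formed the next groups. Of 19 laminins, collagens and other matrix proteins tested of 21 listed, 18 were higher (94.74%, against 31.1% of all genes). Their median, 3.02, was the highest of these lists, and all 18 stayed higher without the block. Among the 18, Fbn1 and Fbn2 reached the floor of 1 TPM in NP alone, so that they could be tested only if they were higher there. Lamb1, a chain of the laminins that embryonic stem cells secrete (chr12:31265234-31329644), had 75.5, 79.7 and 64.7 TPM in NP, against 3.04, 6.12 and 4.87 TPM in CY. The lowest NP value was far above the highest CY value, with a difference of 3.74 (limma adjusted p = 2.21e-17). Ltbp4, a secreted binding protein of latent TGF-beta, was the exception, with 182, 94.5 and 163 TPM in NP, against 161, 83.3 and 153 TPM in CY. Its difference of 0.15 was not called (limma adjusted p = 0.475).

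All 17 integrins and cadherins tested of 18 listed were higher, with a median of 2.55, and 16 stayed so without the block. Celsr1 reached the floor in NP alone. Cdh1, the E-cadherin that joins embryonic stem cells, had 600, 550 and 437 TPM in NP, against 27.5, 49.9 and 47.5 TPM in CY, a difference of 3.67 (limma adjusted p = 5.32e-09). The integrin subunit Itgb1 was higher by 3.38. The smallest difference was that of the adhesion protein Nectin3, 1.38 (limma adjusted p = 0.0725 without the block).

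All 29 growth factor and cytokine receptors tested of 30 listed and all 22 plasma membrane transporters were higher, with medians of 1.97 and 2.58, and all stayed higher without the block, with median-ratio scaling and with quantile normalization. Among the receptors the differences ran from 1.05 for Fgfr4 to 3.67 for Igf2r, the receptor that sorts lysosomal enzymes and takes up Igf2. Fgfr4, Bmpr2 and Acvr2a reached the floor in NP alone, so that their place among the 29 was fixed by the filter. Lifr, the receptor for the LIF in the medium, had 14.8, 36.5 and 34.6 TPM in NP, against 2.84, 8.10 and 9.93 TPM in CY. The NP values were all above the CY values in spite of a wide spread within both fractions, with a difference of 1.93. The transporters ran from 1.23 for Atp1b3, a subunit of the sodium pump, to 3.76 for Slc7a3. The levels of Slc7a3 were 279, 184 and 261 TPM in NP, against 13.9, 16.9 and 19.4 TPM in CY.

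Of 28 lysosomal proteins, soluble enzymes and membrane proteins that pass through the ER, 26 were higher (92.86%, against 31.1% of all genes). The median was 2.13, and 25 stayed higher without the block. Ctsl, the protease cathepsin L, had 125, 225 and 149 TPM in NP, against 7.68, 19.7 and 10.9 TPM in CY, a difference of 3.65. Psap, the precursor of the saposins, was higher by 3.44. The beta-galactosidase Glb1 (0.34) and the beta-mannosidase Manba (-0.07) were not called.

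**Figure D3:**
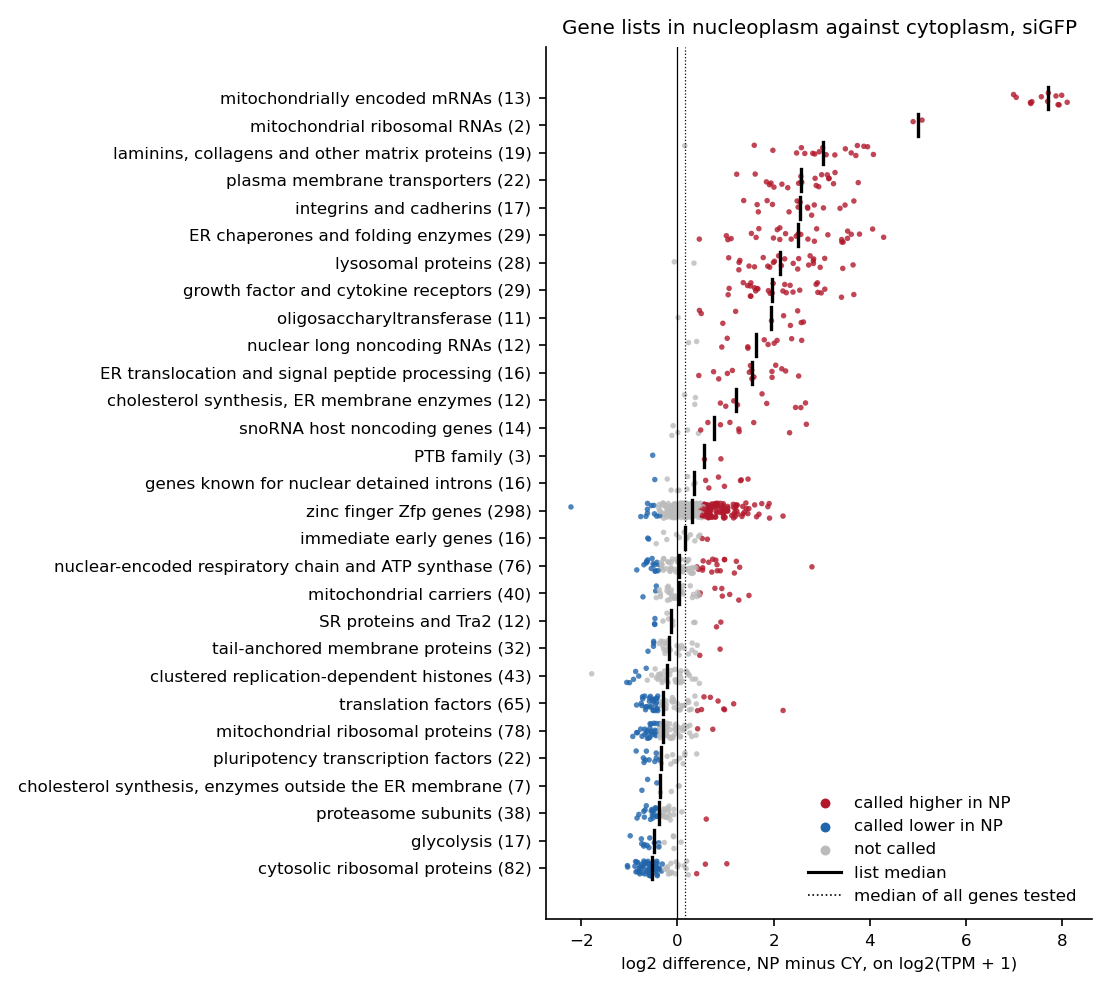
Log2 difference, NP minus CY, of every tested member of each gene list in siGFP cells, with a bar at each list's median and a dotted line at the median of all genes tested, 0.16. The lists of secreted, ER, plasma membrane and lysosomal proteins lie right of the line, and tail-anchored, cytosolic enzyme and ribosomal protein lists lie at or left of it.

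Tail-anchored membrane proteins, whose membrane stretch ends the protein, did not show this difference as a list. Of 32 tested of 33 listed, 2 were higher (6.25%, against 31.1% of all genes) and 4 lower (12.5%, against 9.21%). The median was -0.18, and none was called in either direction without the block. The median was 0.01 with mt- genes left out of the total, where 6 were higher and 1 lower. It was -0.51 with median-ratio scaling, where 1 was higher and 18 lower, and -0.31 with quantile normalization, where 3 were higher and 17 lower. Sec61b, the tail-anchored partner of Sec61a1 in the same channel, had 264, 253 and 236 TPM in NP, against 188, 218 and 203 TPM in CY, without overlap. Its difference of 0.31 was not called as deposited (limma adjusted p = 0.107) and was 0.51 without mt- genes (limma adjusted p = 0.00457). Sec61g, the other small subunit of the channel, differed by -0.20. Stx16, a syntaxin of the Golgi, had 37.4, 43.7 and 38.9 TPM in NP, against 14.7, 29.2 and 21.8 TPM in CY, and at 0.89 was the member with the largest difference. Vamp2, a vesicle fusion protein, was also called, at 0.46 (limma adjusted p = 0.0457; 0.281 without the block), but differed by -0.41 in siPTBP1 and in siPTBP1+siPTBP2 cells. Those called lower were Bax (-0.61) and Bak1 (-0.50), which open the mitochondrial outer membrane in apoptosis, Fis1 (-0.50), which acts in mitochondrial fission, and the syntaxin Stx8 (-0.49). For Bax the levels were 306, 211 and 264 TPM in NP, against 440, 347 and 401 TPM in CY, without overlap. Some of these proteins are short, with 96 residues in Sec61b, 116 in Vamp2 and 152 in Fis1. Genes with a hydrophobic segment at the start of a protein below 100 residues also had a low median, 0.17, with 23.2% higher. The part of protein length in this list was not tested.

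Cholesterol synthesis holds enzymes of both kinds in 1 pathway, some in the ER membrane and some in the cytosol, mitochondria or peroxisomes. Of 12 ER membrane enzymes, 9 were higher and none lower, with a median of 1.21, and 8 stayed higher without the block. Of 7 enzymes outside the ER membrane, none was higher and 3 were lower (42.86%, against 9.21% of all genes). The median was -0.35, and none was called without the block. Msmo1, the methylsterol oxidase of the ER membrane (chr8:64718139-64733792), had 76.1, 191 and 106 TPM in NP, against 10.7, 29.1 and 16.7 TPM in CY. All NP values were above the CY values, with a difference of 2.66 (limma adjusted p = 5.57e-15). Hmgcs1, a cytosolic enzyme early in the pathway, had 56.3, 108 and 87.4 TPM in NP, against 50.2, 128 and 107 TPM in CY. Its fractions overlapped and its difference of -0.13 was not called. Fdps, the cytosolic enzyme that makes farnesyl diphosphate (chr3:89093588-89101959), had 231, 218 and 164 TPM in NP, against 349, 430 and 257 TPM in CY, a difference of -0.74 (limma adjusted p = 0.000125; 0.0566 without the block).

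Dhcr7 (2.57) and Cyp51 (2.46), which like Msmo1 act on sterols late in the pathway, had the next largest differences among these ER membrane enzymes. Nsdhl (0.37), Fdft1 (0.36) and Lss (0.15) were not called. Fdft1, squalene synthase, is held in the ER membrane by a stretch at its end, as tail-anchored proteins are. Mvd (-0.62) and Acat2 (-0.43) were the other enzymes called lower.

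**Figure D4:**
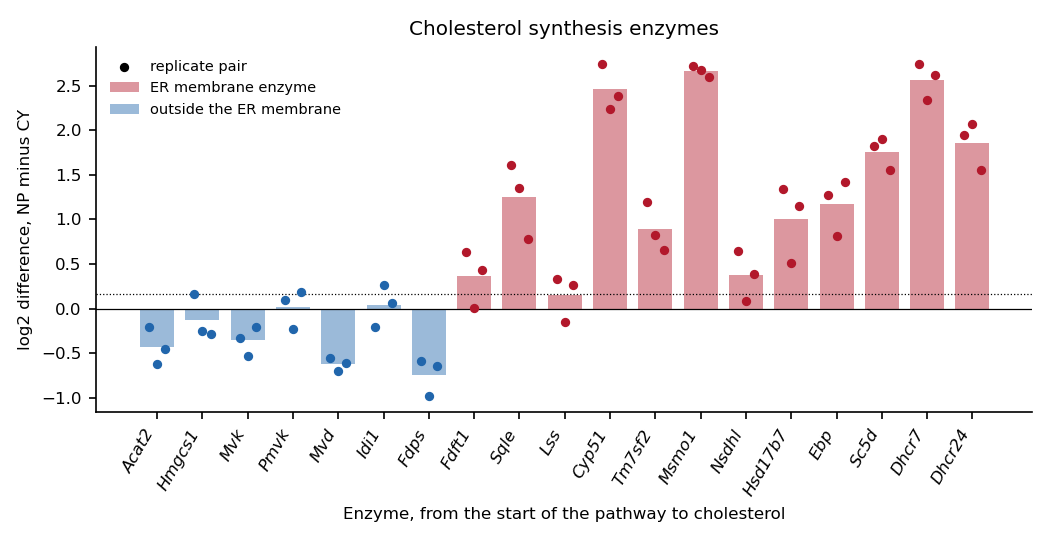
Log2 difference, NP minus CY, of cholesterol synthesis enzymes in the order of the pathway in siGFP cells, with bars for the mean, points for the 3 replicate pairs and a dotted line at the median of all genes, 0.16. Msmo1 at 2.66 is the highest and Fdps at -0.74 the lowest, and no enzyme outside the ER membrane reaches the level of any called ER membrane enzyme.

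Over all 12065 tested genes whose coding sequence was read, the classes of hydrophobic segment (a window of 19 residues with a mean Kyte-Doolittle hydropathy of at least 1.6) differed in the same way. Of 788 genes with a segment at the start of the protein and others later, 83.0% were higher and 0.127% lower, with a median of 1.26. Of 637 with a start segment alone, 68.1% were higher and 2.04% lower, with a median of 0.97. Of 944 with at least 2 later segments and none at the start, 63.4% were higher, with a median of 0.80, and of 1478 with 1 later segment 35.8% were, with a median of 0.25. Of the 8218 with no segment, 18.2% were higher and 11.9% lower, with a median of 0.01, beside 30.7% higher and 8.97% lower of all 12065. Without the block 1551 of the 3847 genes with any segment were higher and 13 lower, and 418 of the 8218 with none were higher and 176 lower. Genes with a start segment made up 7.19% ± 0.626 of the summed TPM of coding genes in NP and 2.69% ± 0.194 in CY (SD, n = 3), with 6.92% in CH. Exact sign flips gave p = 0.25, the smallest that 3 pairs allow.

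In the class with a start segment the difference rose with the length of the protein from bin to bin. Among genes with a start segment the median was 0.17 below 100 residues (n = 56), 0.65 from 100 to 200 (n = 164), 1.00 from 200 to 400 (n = 493), 1.34 from 400 to 800 (n = 489) and 1.72 at 800 or more (n = 223). The share called higher in these bins was 23.2, 62.2, 71.8, 84.0 and 93.3%. Genes with later segments only had a median of -0.09 below 100 residues and of 0.25 to 0.54 in the other bins. It was highest from 400 to 800 residues and fell to 0.41 at 800 or more. Genes with no segment ran between -0.17 for 100 to 200 residues and 0.25 at 800 or more.

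**Figure D5:**
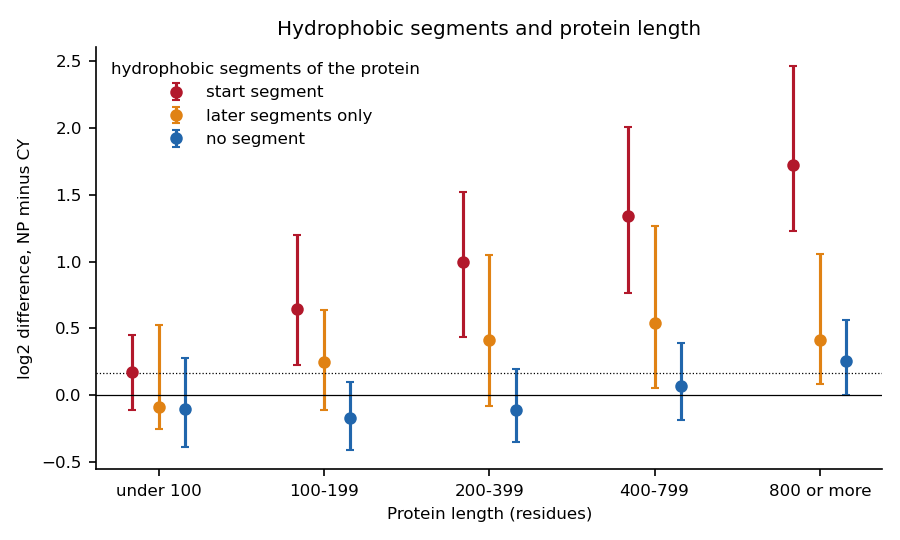
Median log2 difference, NP minus CY, with quartile bars, by protein length in residues for genes with a start segment, with later segments only and with no segment, in siGFP cells. The start segment class runs from 0.17 in the shortest bin to 1.72 in the longest, and the class with no segment stays between -0.17 and 0.25.

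Length counted also without a segment. Among the 8218 genes with none, the median was -0.19 for transcripts below 1000 nt and 0.46 for those of 8000 nt or more. Genes called higher had a median transcript of 3200.5 nt with 9 exons and 48.5% GC, those called lower one of 1540.5 nt with 5 exons and 53.7% GC, and all genes one of 2672 nt with 8 exons and 50.6% GC. Over 13849 genes Spearman's rho with the difference was 0.23 for transcript length, -0.25 for GC and 0.11 for exon number. These are descriptions over genes of the same 6 libraries, and the 3 features go together. Effective length enters TPM, so part of a relation with length could arise in the estimate, which was not tested.

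Most of the tested long noncoding RNAs known to stay in the nucleus were higher in NP. Of 12 tested of 19 listed, 10 were higher (83.33%, against 31.1% of all genes) and none lower, with a median of 1.64. All 10 stayed higher without the block, 9 with median-ratio scaling and 7 with quantile normalization. Tsix and Ftx, counted among the 10, reached the floor in NP alone. Meg3, a noncoding RNA of the imprinted Dlk1-Dio3 region (chr12:109541001-109571726), had 138, 210 and 136 TPM in NP, against 28.7, 43.9 and 39.7 TPM in CY, while CH held 945, 1563 and 1605 TPM. Neat1, the RNA that builds paraspeckles (chr19:5824708-5845478), had 19.4, 30.5 and 15.01 TPM in NP, against 3.10, 7.06 and 3.75 TPM in CY, and 87.5, 139 and 107 TPM in CH. For both the 3 fractions did not overlap, with CH highest and CY lowest. Malat1, an RNA of nuclear speckles (chr19:5795690-5802672), had 23.9, 108 and 30.2 TPM in NP, against 11.02, 16.4 and 7.01 TPM in CY, and 471, 1056 and 707 TPM in CH. NP replicate 2 was well above the other 2 NP libraries, and the difference of 1.89 ± 0.27 (SE; limma adjusted p = 0.000415) was not called with median-ratio scaling (adjusted p = 0.10) or quantile normalization (0.085). Tug1 (2.59) and Firre (2.38) had the largest differences, and Nespas (0.40) and Pvt1 (0.23) were not called.

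Of 14 host genes of snoRNAs tested, 9 were higher (64.29%, against 31.1% of all genes) and none lower. They were listed as noncoding, but the annotation gives Snhg11 as protein-coding, with 87 residues. The median was 0.76, and 7 stayed higher without the block. With median-ratio scaling 7 were higher and 1, Snhg8, was lower (-0.47, limma adjusted p = 0.00619). With quantile normalization 8 were higher and 1 lower. Snhg11 had 6.69, 19.02 and 10.04 TPM in NP, against 0.55, 1.33 and 0.78 TPM in CY, and 60.2, 130 and 104 TPM in CH, with no overlap between any of them. Snhg4 was higher by 2.33 and Snhg12 by 1.59. Snhg8 (-0.12) and Snhg18 (-0.09) had the lowest values and were not called as deposited.

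Genes known for introns that stay unspliced in the nucleus, so-called detained introns, were mixed. Of 16, 7 were higher (43.75%, against 31.1% of all genes) and 1 lower (6.25%, against 9.21%). The median was 0.35 and was 0.0004 with median-ratio scaling, and 2 stayed higher without the block. Clk4, a kinase of splicing factors, had 14.8, 39.9 and 36.4 TPM in NP, against 6.41, 12.6 and 14.6 TPM in CY, and 119, 279 and 290 TPM in CH, a difference of 1.31 (limma adjusted p = 0.0661 without the block). Its highest CY value was only just below its lowest NP value. Pnisr was higher by 1.47, Gabbr1 by 1.33 and Ogt by 0.98, and Srsf7 was lower, at -0.47. Among 12 SR proteins and Tra2 genes, which act in splicing, Srsf11 (0.90) and Srsf10 (0.81) were higher, Srsf7, Srsf3 (-0.48) and Srsf9 (-0.47) were lower, and none was called without the block. Of these 12, 16.67% were higher and 25% lower, against 31.1% and 9.21% of all genes. Gene-level TPM does not separate spliced from unspliced transcripts.

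Zinc finger genes of the Zfp series code for DNA-binding proteins, many of them repressors with KRAB domains. Of 298 tested of 365 listed, 104 were higher (34.9%, against 31.1% of all genes) and 11 lower, with a median of 0.31 that was -0.18 with quantile normalization. The floor was reached in NP alone by 8 of those called higher and in CY alone by 1 gene. Without the block 33 were higher and 1 lower, and with quantile normalization 34 were higher and 77 lower. Zfp987 had 14.2, 24.0 and 24.7 TPM in NP, against 2.25, 3.23 and 6.39 TPM in CY, and 153, 185 and 207 TPM in CH, a difference of 2.20. At the other end Zfp969 had 0.13, 0 and 0 TPM in NP, against 3.45, 4.73 and 3.45 TPM in CY, and was listed at 0 in CH. Genes of this family resemble one another, so that reads may be split between them.

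The mRNAs of many abundant cytosolic proteins took a smaller share of NP. Of 82 cytosolic ribosomal protein genes, 61 were lower (74.39%, against 9.21% of all genes) and 3 higher (3.66%, against 31.1%). The median was -0.52, and 38 stayed lower and none higher without the block. Their summed level was 125527, 112491 and 116839 TPM in NP, against 168267, 163742 and 167195 TPM in CY, without overlap. Rpl32, a protein of the large subunit (chr6:115805505-115808747), had 2458, 2444 and 2626 TPM in NP, against 5006, 5198 and 5291 TPM in CY, a difference of -1.04 (limma adjusted p = 4.07e-10; 0.000516 without the block). Rpl13a differed by -1.04 as well, Rpl35 by -0.89 and Rpl8 by -0.87. Those called higher were Rpl5 (1.03), Rpl12 (0.58) and Rps29 (0.40), each lost without the block. Many processed pseudogenes resemble these genes, so their single values are uncertain. With mt- genes left out of the total, 51 were lower and 7 higher.

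Of 17 glycolysis genes, 11 were lower (64.71%, against 9.21% of all genes) and none higher. The median was -0.48, and 5 stayed lower without the block. Gapdh (chr6:125161715-125166467) had 6716, 5197 and 5704 TPM in NP, against 8786, 10543 and 9021 TPM in CY. All NP values were lower, with a difference of -0.69 (limma adjusted p = 8.69e-06). Ldha, lactate dehydrogenase, differed by -0.75. The glucose-trapping enzyme Hk1 (-0.07) and Eno3 (0.08) were not called.

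Further lists of proteins made in the cytosol leaned the same way. Of 38 proteasome subunits 18 were lower (47.37%, against 9.21% of all genes) and 1 higher (2.63%, against 31.1%), with a median of -0.38. Psmb6, a catalytic subunit, had 760, 515 and 613 TPM in NP, against 1311, 1043 and 1010 TPM in CY, and Psmb8, a subunit of the immunoproteasome, was the one called higher, at 0.60. Of 65 translation factors 29 were lower (44.62%) and 9 higher (13.85%), with a median of -0.30. Eif6 (-0.85), which keeps the ribosomal subunits apart, was among the lower ones, and the highest, at 2.20, was Eif2ak3, which codes not for a cytosolic factor but for the ER membrane kinase PERK. Its levels were 15.7, 21.3 and 15.2 TPM in NP, against 1.82, 3.81 and 3.59 TPM in CY. Of 78 mitochondrial ribosomal proteins 26 were lower (33.33%) and 2 higher (2.56%), with a median of -0.30. Without the block 5 proteasome, 7 translation factor and 6 mitochondrial ribosomal protein genes stayed lower.

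Of 22 pluripotency transcription factors, the regulators that hold embryonic stem cells undifferentiated, 10 were lower and none higher, with a median of -0.35. That is 45.45% lower, against 9.21% of all genes. Pou5f1, which codes for Oct4 (chr17:35506018-35510772), had 1178, 683 and 973 TPM in NP, against 1580, 1321 and 1441 TPM in CY, a difference of -0.65 (limma adjusted p = 8.14e-05; 0.0615 without the block). Klf2 had 143, 124 and 125 TPM in NP, against 215, 272 and 229 TPM in CY, and at -0.86 was the only one still called without the block. Esrrb differed by -0.71 and Nanog by -0.47, while Sox2 at -0.02 and Klf5 at 0.40 were not called.

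Nuclear-encoded proteins of the mitochondrion did not share the large difference of the mitochondrially encoded ones. Of 76 respiratory chain and ATP synthase genes, 18 were higher (23.68%, against 31.1% of all genes) and 15 lower (19.74%, against 9.21%). The median was 0.04, and it was -0.31 with median-ratio scaling. Cox6a1, a subunit of cytochrome c oxidase (chr5:115345642-115348981), had 690, 691 and 605 TPM in NP, against 92.1, 118 and 76.9 TPM in CY. It stood apart from the rest of its list at 2.8 (limma adjusted p = 8.36e-17), followed by Ndufb9 (1.29) and Cox7b (1.23). Atp5e, a small subunit of ATP synthase, had 297, 202 and 249 TPM in NP, against 473, 434 and 426 TPM in CY, and had the lowest value, -0.85. Of 40 mitochondrial carriers 8 were higher (20.0%, against 31.1% of all genes) and 3 lower (7.5%, against 9.21%), with a median of 0.02. With median-ratio scaling 5 were higher and 17 lower, with a median of -0.26, and with quantile normalization 3 were higher and 17 lower, with a median of -0.32. Slc25a27, which reached the floor in NP alone, had the highest value, 1.49, and Slc25a34 the lowest, -0.72.

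Of 43 replication-dependent histone genes, whose mRNAs lack a poly(A) tail and are seen only in part here, 6 were lower and none higher. That is 13.95% lower, against 9.21% of all genes. Without the block 1 was lower, with median-ratio scaling 17 and with quantile normalization 24. Of 16 immediate early genes, Jun (0.62) and Atf3 (0.52, but -0.04 with quantile normalization) were higher and Jund (-0.62) and Ier2 (-0.60) lower, and none was called without the block. Of these 16, 12.5% were higher and 12.5% lower, against 31.1% and 9.21% of all genes. Ptbp1, the splicing repressor targeted in the other cells of the series, had 484, 287 and 401 TPM in NP, against 502, 534 and 611 TPM in CY. The fractions did not overlap, and the difference of -0.52 (limma adjusted p = 0.00683) was not called without the block (0.132). Ptbp2 and Ptbp3 were called higher, at 0.56 and 0.90, and likewise not without the block.

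The largest lower differences were smaller than the largest higher ones, from -0.88 to -1.44 over 15 named genes. Lars2, a mitochondrial leucyl-tRNA synthetase (chr9:123366927-123462666), had 1166, 486 and 481 TPM in NP, against 2544, 1498 and 1435 TPM in CY, a difference of -1.44 (limma adjusted p = 1.72e-11; 0.0247 without the block). AA474408, a transcript that the annotation leaves unclassified, had 352, 163 and 153 TPM in NP, against 751, 455 and 448 TPM in CY. In both genes replicate 1 was highest in each fraction, which is the replicate with the largest share of noncoding RNA under 200 nt. That share was 9.75% in NP replicate 1 and 4.26 and 4.38% in the other NP libraries, against 22.9% in CY replicate 1 and 11.2 and 11.5% in the other CY libraries. The entry Mir6236 alone took 3.19, 1.32 and 1.34% of the summed TPM in NP, against 7.06, 4.13 and 4.31% in CY. It too was highest in replicate 1 and lower in NP than in CY. Whether Lars2 and AA474408 share reads with such RNA was not tested, so their values are uncertain. Rpph1, the RNA of ribonuclease P (-1.37), Dph3, which acts in diphthamide synthesis (-1.04), the phosphatase Phospho1 (-1.01) and the spliceosome protein Txnl4a (-0.96) followed. Of the 15, Pgam2 was the only one not called without the block (limma adjusted p = 0.0798).

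The same pair of fractions was also taken from siPTBP1 and siPTBP1+siPTBP2 cells, which share no library with the siGFP comparison. In siPTBP1 cells 3890 of the 13860 genes (28.1%) were higher in NP and 3581 (25.8%) lower. In siPTBP1+siPTBP2 cells 3562 (25.7%) were higher and 1662 (12%) lower. Of the 4316 genes called higher in siGFP cells, 97.4% had the same sign in siPTBP1 cells and 3500 (81.1%) were called higher there, with 7 called lower. In siPTBP1+siPTBP2 cells 98.8% had the same sign and 3291 (76.3%) were called higher, with 2 called lower. Of the 1276 genes called lower in siGFP cells, 1157 (90.7%) were called lower in siPTBP1 cells and 884 (69.3%) in siPTBP1+siPTBP2 cells, with 1 called higher in each. The ER chaperones had medians of 2.72 and 2.97 in siPTBP1 and siPTBP1+siPTBP2 cells, against 2.51 in siGFP cells, and the matrix proteins 3.79 and 3.59, against 3.02. Whether the treatments differ in these lists was not tested.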

How the data were processed

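Gene-level TPM values were deposited by the authors for all 27 libraries in 1 table, with STAR, kallisto and mm10 named in the submitters' processing notes without versions or roles. The kit was strand-specific, per the labels' protocols. TPM keeps no depth, so read depth cannot be had from the files and intervals that need it were not computed. The labels name no annotation release. Of the IDs, 53274 of 53379 matched GENCODE M21, and 26 missing symbols were taken from it. Where a symbol had more than 1 ID, the ID with the higher mean over the 6 libraries stands for it.

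Genes at 1 TPM or more in at least 3 of the 6 siGFP NP and CY libraries were tested with limma 3.58.1 (R 4.3.3) on log2(TPM + 1), with empirical Bayes moderation (trend and robust), two-sided, with Benjamini-Hochberg adjustment over the 13860 genes and a threshold of 0.05. The floor was met in exactly 3 libraries by 1029 genes (571 of them through NP alone and 21 through CY alone), with a median mean of 1.24 TPM, and 905 genes just missed it with 2 libraries, with a median of 0.888 TPM. Replicate number was a block. Same-numbered NP and CY libraries deviated together from their group means (correlations of 0.571, 0.325 and 0.518, against -0.458 to 0.0899 for other numbers), so the numbers were taken as pairs. The block leaves 2 residual degrees of freedom and a median prior of 32.1, against 4 and 4.52 without it, so its p-values lean on the spread shared between genes. The series states biological replicates. What a replicate number stands for is not stated.

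Alternatives were 2 other pseudocounts, other floors, no block, all 27 libraries in 1 fit, median-ratio and quantile scaling, rescaling without mt- genes, leaving out each replicate, and rescaling without mt- genes and their copies, the last chosen after seeing the data. The comparison, the gene lists and the tests were chosen with earlier results of these data known. Named genes were the 15 largest called differences in each direction (mean of at least 10 TPM in the higher fraction, no overlap, a transcript of at least 200 nt, no pseudogene, mt- or predicted gene name), the extremes of each list, members of short lists, the most abundant genes and a fixed set of reference genes; some were left out for length, and some list members are not reported here and were left out of the lists. Proteins were translated from the GENCODE M21 principal coding sequence, because no protein table was given. Reads of paralogs and pseudogenes may be split between genes. The fits were also run on simulated data. Those carried less spread within pairs than the real libraries, so they do not show how well real changes are found.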

Additional observations from a re-analysis of the deposited data

How the results depend on the processing

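Counts of genes higher or lower in NP moved more with the scaling, the block and the replicates than with the pseudocount. Higher genes numbered 4316 as reported, 2446 with no replicate block, 2868 of 9712 genes with a floor of 5 TPM and 2656 with quantile normalization. Lower genes numbered 1276 as reported, 249 with no replicate block, 629 without mt- genes, 422 without mt- genes and their copies, 387 of 30702 genes with no filter, 4581 with median-ratio scaling and 4733 with quantile normalization. Leaving out 1 replicate gave 3476 to 3994 higher and 259 (without replicate 3) to 2237 (without replicate 1) lower genes. The genes called lower without mt- genes were all among the 1276, as were the 422, and 1271 of the 1276 stayed lower with median-ratio scaling. Of 373 genes named or listed, 68 changed sign under at least 1 alternative. The 4 that were called in the reported fit or under that alternative were Atf3 (-0.0389) and Vamp4 (-0.52) with quantile normalization, Ost4 (-0.34) with median-ratio scaling and Ddx5 (0.28) without mt- genes and their copies. List medians changed sign by more than their spread over replicate pairs for tail-anchored proteins without mt- genes (0.0145) and without their copies too (0.0966), SR proteins without mt- genes and their copies (0.14), respiratory chain (-0.31) and mitochondrial carriers (-0.26) with median-ratio scaling, and mitochondrial carriers (-0.32), Zfp genes (-0.18) and immediate early genes (-0.27) with quantile normalization. Smaller changes of sign were those of SR proteins without mt- genes (0.06), immediate early genes with median-ratio scaling (-0.14) and without replicate 1 (-0.07), mitochondrial carriers with a floor of 5 TPM (-0.05) and without replicate 1 (-0.16), and the respiratory chain without replicate 1 (-0.02). The causes were not tested. With no replicate block 58 of the 373 genes lost their call. The shares of mitochondrially encoded, ribosomal protein and start segment RNA kept their direction without each replicate in turn. Depth limits are unknown, since TPM keeps none.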

Other observations

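Other gene types of the annotation differed in level between the fractions of siGFP cells. Of 98 transcripts of type TEC, which the annotation leaves unclassified, 80 were higher in NP and 1 lower, with a median of 1.15, beside 31.1% higher and 9.21% lower of all genes. Of 281 lincRNAs 115 were higher and 13 lower, with a median of 0.38, and of 105 processed transcripts 47 were higher and none lower. These counts rested on the scaling. With quantile normalization 63 lincRNAs were higher and 71 lower, with a median of -0.13. For processed transcripts it gave 27 higher and 20 lower, with a median of -0.03. With median-ratio scaling 89 lincRNAs were higher and 45 lower, and 36 processed transcripts were higher and 11 lower. As deposited, processed pseudogenes went the other way, with 79 higher and 129 lower of 499 and a median of -0.25. Of 150 snoRNAs 61 were higher and 8 lower, with a median of 1.88. These RNAs are short and mostly lack a poly(A) tail, so their TPM values are uncertain. Of all genes tested, 571 reached the floor of 1 TPM in NP alone and 21 in CY alone. Those 571 could be tested only if they were higher in NP. How many belong to each gene type was not counted.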
